A study of Mus musculus with 2 samples.

Results

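HSP90 and its cochaperones were followed as the partners of p23, the protein made from Ptges3, in single-cell RNA libraries of mouse dorsal root ganglia. Of the 10 symbols listed for the group, 9 were found among the 32285 genes of both libraries: the HSP90 genes Hsp90aa1, Hsp90ab1 and Hsp90b1, and the cochaperone genes Ahsa1, Cdc37, Stip1, Fkbp4, Chordc1 and Stub1. The other, Aha1, is an older name for the product of Ahsa1 and is not a symbol of the gene table. The gene identifiers of all 9 and of Ptges3 matched the GENCODE annotation of GRCm38.

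These ganglia hold the cell bodies of sensory neurons and their glia, and they came from mice at postnatal day 4. One library was from mice labelled Ptges3 flox/flox (the flox library) and 1 from mice labelled Dhh CRE+, Ptges3 flox/flox (the cKO library). Both groups therefore carry floxed Ptges3, and they differ in a Cre driven by desert hedgehog (Dhh) sequence, which is active in the Schwann cell lineage. Strain, sex, the number of animals pooled and the exons that are floxed are not given in the sources used here, and with 1 library per genotype no difference below has a replicate check.

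HSP90 is an ATP-driven chaperone that works as a dimer and completes the folding of kinases, steroid receptors and other clients. HSP70 hands clients over through the adaptor made from Stip1, kinases arrive with the product of Cdc37, the product of Ahsa1 speeds ATP hydrolysis, and p23 binds the closed, ATP-bound dimer and slows its turnover. Hsp90aa1 is the heat-inducible and Hsp90ab1 the constitutive cytosolic gene, and Hsp90b1 encodes the HSP90 of the endoplasmic reticulum.

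RNA molecules were counted by UMIs (unique molecular identifiers): 132620886 over 10014 barcodes for the flox library and 78144437 over 9703 barcodes for cKO. Of these barcodes 23 occurred in both. Cells were sorted into classes by the summed UMIs of marker genes, none of which is a chaperone described here as a member. Neuron-like cells numbered 1619 in the flox and 3056 in the cKO library, with medians of 47879 and 9866 UMIs per cell. A set of 4 glial groups were separated: myelinating-Schwann-like cells (1237 and 331), glia with Fabp7, a gene of the satellite glia that wrap neuron cell bodies (300 and 440), weakly myelinating glia (1802 and 1582) and cycling glia (454 and 465). There were also fibroblast-like (1257 and 1160), macrophage-like (418 and 177), endothelial-like (149 and 147) and mural-like cells (115 and 141), the last being pericytes and vascular smooth muscle. In each class compared, at least 10 of its 12 to 15 markers were higher there than in the other classes in both libraries, except in weakly myelinating glia, where 6 of 12 markers of immature Schwann cells were, so that group is named by its gate. Most of these markers are also the genes of the gates, so their being higher was largely fixed by the sorting and is no independent check. Oligodendrocyte-like (373) and astrocyte-like cells (166), types of the central nervous system, were gated in the flox library. They made up 0 of 8435 cells of the cKO library, which allows a share of up to 0.0356% each, so they have a flox value only. Whether microglia are among the macrophage-like cells was not tested.

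A level is the UMIs of a gene per 1000000 UMIs of the class (CPM), with an exact Poisson interval, and a ratio is the log2 of cKO over flox CPM with an exact conditional binomial interval. All intervals are at 95% and cover counting error only. A gene was called higher or lower when the ratio was at least 0.5 in size, its interval left out 0 and it had at least 100 UMIs over both libraries.

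Ptges3 (GRCm38 chromosome 10, 128058954 to 128077272, forward strand) had less RNA under cKO in the 4 glial groups. Its level was 207.5 CPM in flox and 104.1 CPM in cKO myelinating-Schwann-like cells, a ratio of -0.995 (-1.23 to -0.77). The ratios were -0.55 in Fabp7-gated glia, -1.15 in weakly myelinating glia and -1.17 in cycling glia. Outside the glia it was higher in the cKO library, from 276.0 to 394.6 CPM in neuron-like cells (0.52, 0.49 to 0.54), and by 0.65 in endothelial-like and 0.59 in mural-like cells. The ratios in fibroblast-like (0.33) and macrophage-like cells (0.27) stayed under the size called. The neuronal ratio was 0.498 with TMM factors, 0.482 in cells of at least 10000 UMIs and 0.475 with equal subtype weights, and that of Fabp7-gated glia -0.391 with TMM factors, all under that size. A UMI marks the 3′ end of the RNA, so it can also come from an allele that has lost its floxed exons.

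Hsp90aa1 (ENSMUSG00000021270, GRCm38 chromosome 12, 110690605 to 110702728, reverse strand) was the member that differed most widely: it was higher in the cKO library in all 8 non-neuronal classes. In myelinating-Schwann-like cells it went from 443.0 CPM (431 to 455) to 797.2 CPM (755 to 841), 1.80-fold, with a ratio of 0.85 (0.76 to 0.94). Fabp7-gated glia had 570.2 (flox) and 1101 CPM (cKO), with a log2 ratio of 0.95 (0.83 to 1.07). Weakly myelinating glia had 684.5 and 1169 CPM, a ratio of 0.77 (0.72 to 0.82). Cycling glia had 883.9 and 1367 CPM (0.63, 0.56 to 0.70). In each of these glial groups the intervals of the libraries lay apart. The myelinating-Schwann-like class itself differed between the libraries: its 14 myelin markers summed to 145000 CPM in flox and 83330 CPM in cKO cells, with 0 of 14 higher under cKO, and 5.17% of flox and 13.3% of cKO cells lay less than 25% above the limit of the gate. The part of this in the ratios of the class was not tested.

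The same held outside the glial groups, where Ptges3 was not lower. Hsp90aa1 stood at 674.2 and 1018 CPM in fibroblast-like cells (0.59, 0.55 to 0.64) and at 702.1 and 1212 CPM in macrophage-like cells (0.79, 0.67 to 0.91). Endothelial-like cells had 570.9 and 1376 CPM (1.27, 1.14 to 1.40) and mural-like cells 501.9 and 1854 CPM (1.89, 1.71 to 2.06). The ratio of Hsp90aa1 was thus positive in glial groups with less Ptges3 and in classes with as much or more Ptges3 in the cKO library. It was above that of 95.02% of the genes measured in fibroblast-like cells and of 99.14% in mural-like cells, with the other non-neuronal classes between.

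**Figure D1:**
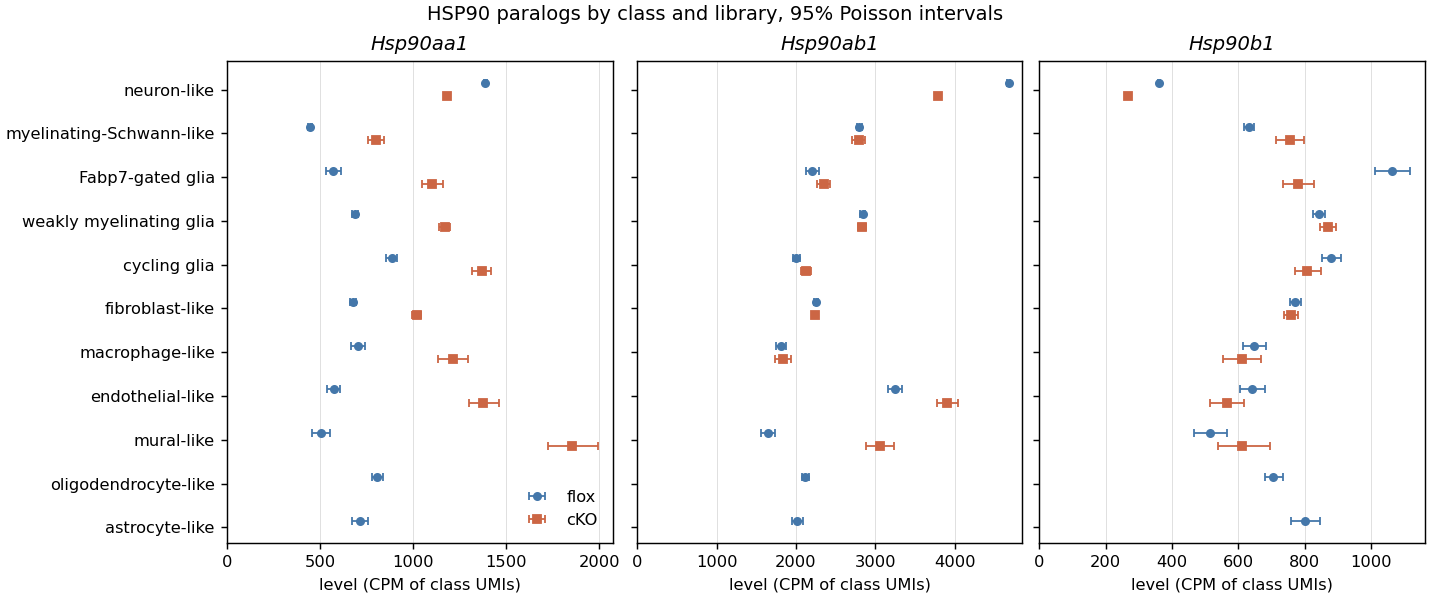
Level of Hsp90aa1, Hsp90ab1 and Hsp90b1 (CPM, horizontal axes) in each class (rows) of the flox (circles) and cKO library (squares), with 95% Poisson intervals. Hsp90aa1 is higher in the cKO library in the 8 non-neuronal classes and lower in neuron-like cells, while Hsp90ab1 differs most in neuron-like and mural-like cells. Oligodendrocyte-like and astrocyte-like cells have a flox value only.

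Neuron-like cells went the other way. Hsp90aa1 stood at 1387 CPM (1378 to 1395) in flox and 1179 CPM (1170 to 1189) in cKO cells. The ratio of -0.23 (-0.25 to -0.22) is under the size called, and 20.2% of the genes measured there had a lower one. In the flox library neuron-like cells had the highest level of any class and cycling glia were second. In the cKO library mural-like cells came first, endothelial-like cells and cycling glia followed with overlapping intervals, and neuron-like cells came after macrophage-like cells and before weakly myelinating glia, with intervals that overlapped those of both.

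Depth, and RNA of other classes, also differed between the libraries in neuron-like cells. The 11 glial gate genes summed to 636.3 CPM in flox and 852.1 CPM in cKO neuron-like cells, with 9 of 11 higher in the cKO library and none at 0. The 14 myelin markers went the other way, 1772 and 1432 CPM, with 4 of 14 higher under cKO. Sums of the fibroblast, macrophage, endothelial and cycling markers were higher under cKO, and that of the mural gate genes was lower (73.5 and 67.3 CPM). In neuron-like cells of 10000 to 30000 UMIs, a range chosen after seeing the data (214 flox and 848 cKO cells, medians of 18724.5 and 17832 UMIs), the ratio of Hsp90aa1 was -0.175 and that of Hsp90ab1 was -0.077 in place of -0.30. The median of all genes measured was -0.166 under that choice, a shift of -0.142, with 5.53% of 10605 genes called higher and 22.5% lower. The ratio of Hsp90aa1 there was thus close to that median, and that of Hsp90ab1 was above it. The part of glial RNA in the neuronal ratios was not tested.

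Neuron RNA was also measured in the non-neuronal classes, since neuron-like cells held the most Hsp90aa1 in the flox library and were more numerous in the cKO library. The sum of the 15 neuron markers changed by between -0.105 log2 (weakly myelinating glia) and 0.351 log2 (mural-like cells). In myelinating-Schwann-like cells it was 1239 CPM in flox and 1228 CPM in cKO, and in Fabp7-gated glia 1672 and 1579 CPM. Mural-like cells had 683.3 and 871.3 CPM, with 12 of 15 markers higher under cKO and 1 at 0 in each, while the 11 glial gate genes summed to 331.7 and 86.4 CPM there. The part of this RNA in the ratios was not tested.

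The difference in Hsp90aa1 was also seen in the middle of the cells. Among myelinating-Schwann-like cells with at least 2000 UMIs (1215 flox and 304 cKO), the quartiles of Hsp90aa1 were 240.1, 404.5 and 601.8 CPM in the flox and 274.4, 612.1 and 1035 CPM under cKO. Of the cKO cells, 51.0% lay above the upper quartile of the flox cells. In Fabp7-gated glia the medians were 460.3 and 938.6 CPM, and 57.8% of cKO cells lay above the upper flox quartile. Among the 8 non-neuronal classes the share was lowest in fibroblast-like cells, at 46.9%, and highest in mural-like cells, at 79.4%. In neuron-like cells it was 23.7%. The quartiles there were 1094, 1370 and 1629 CPM in flox and 808.4, 1160 and 1602 CPM under cKO, a wider spread in the cKO library. Above the flox median lay 36.9% of cKO neuron-like cells. In the non-neuronal classes that share ran from 64.1% (macrophage-like) to 89.7% (endothelial-like). The part of depth per cell in these shares was not tested.

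With each cell thinned to 2000 UMIs, the mean number of Hsp90aa1 UMIs per cell went from 0.882 to 1.76 in myelinating-Schwann-like cells and from 1.02 to 2.08 in Fabp7-gated glia. It went from 2.73 to 2.44 in neuron-like cells. Thus the direction in these 3 classes was the same at equal depth per cell.

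Hsp90ab1 (ENSMUSG00000023944, chromosome 17, 45567775 to 45573271, reverse strand), the constitutive paralog, was called in 1 of 9 classes. It had 2798 and 2788 CPM in myelinating-Schwann-like cells, a ratio of -0.005 (-0.05 to 0.04). Weakly myelinating glia had 2840 and 2833 CPM, and fibroblast-like cells 2256 and 2239 CPM. In these 3 classes and in macrophage-like cells (1814 and 1833 CPM) the intervals of the libraries overlapped and that of the ratio held 0.

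Fabp7-gated glia (0.09), cycling glia (0.09) and endothelial-like cells (0.27, 3244 and 3908 CPM) had ratios whose intervals lay above 0 but under the size called. Mural-like cells were the exception, where 1651 CPM (1563 to 1742) in flox cells faced 3058 CPM (2888 to 3236) in cKO cells, which gives 0.89 (0.78 to 1.00). Neuron-like cells fell short of a call in the other direction, with 4677 CPM for flox against 3789 CPM for cKO (-0.30, -0.31 to -0.30). Among those cells with at least 2000 UMIs, 6.75% of cKO cells lay above the upper quartile of the flox cells.

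The makeup of the cytosolic pair differed between the libraries. Hsp90aa1 gave 13.7% (Clopper-Pearson 13.32 to 14.02) of the UMIs of Hsp90aa1 and Hsp90ab1 in flox myelinating-Schwann-like cells and 22.2% (21.2 to 23.3) in those of the cKO library. The share went from 20.5% to 31.9% in Fabp7-gated glia, from 19.4% to 29.2% in weakly myelinating glia and from 14.97% to 26.0% in endothelial-like cells. It was 22.9% and 23.7% in neuron-like cells, where both paralogs were lower in the cKO library. The intervals of the libraries lay apart in all 9 classes, with a gap of under 1 percentage point in neuron-like cells. The share is of UMIs and need not equal that of the proteins.

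**Figure D2:**
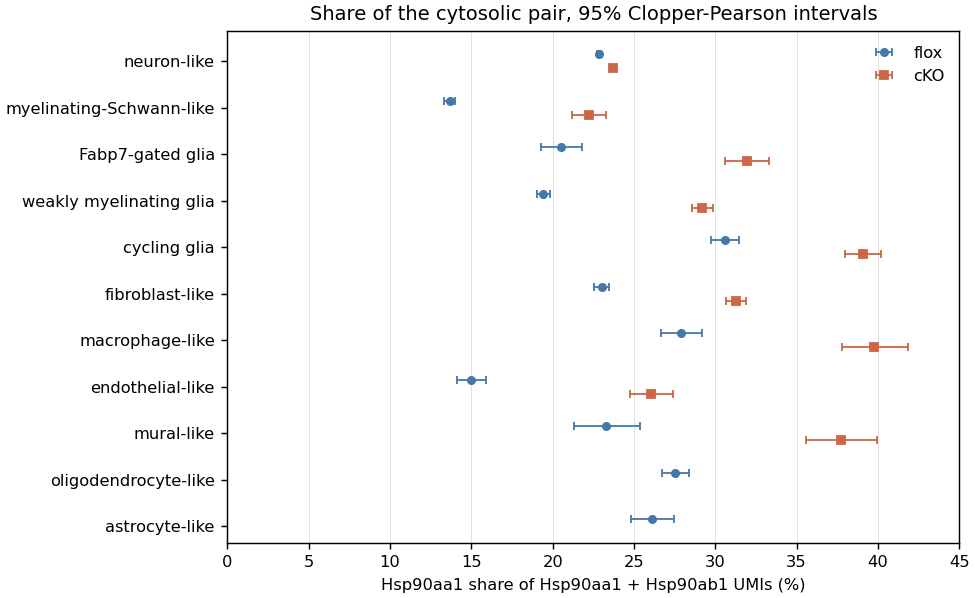
Share of Hsp90aa1 in the summed UMIs of Hsp90aa1 and Hsp90ab1 (percent, horizontal axis) by class (rows), flox as circles and cKO as squares, with 95% Clopper-Pearson intervals. Every non-neuronal class found in both libraries has a higher share in the cKO library, while neuron-like cells stand at 22.9% and 23.7%.

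Hsp90b1 (ENSMUSG00000020048, chromosome 10, 86690209 to 86705509, reverse strand), the HSP90 of the endoplasmic reticulum, was called in 0 of 9 classes and followed another order of levels. It was lowest in neuron-like cells in both libraries, with flox at 360.8 CPM and cKO at 266.8 CPM (ratio -0.44, -0.47 to -0.41). Fabp7-gated glia had the highest flox level, 1064 CPM, against 781 CPM under cKO (-0.45, -0.56 to -0.33). In the cKO library weakly myelinating glia came first and cycling glia second, with overlapping intervals. Myelinating-Schwann-like cells had 631.4 and 754.7 CPM (0.26, 0.17 to 0.34). In neuron-like cells of 10000 to 30000 UMIs the ratio was -0.76, past the size called, where 22.5% of all genes were called lower. With equal cell weights the Fabp7-gated ratio also passed it (-0.51), and with TMM factors it was -0.28.

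The stretch before the start of Hsp90b1 is shown because it holds a pair of ER stress elements, the sequence through which the unfolded protein response acts on chaperone genes. An element was searched as CCAAT and CCACG with 9 bases between, on both strands, in RefSeq promoter windows of GRCm38.p6 that run from 250 bases before to 50 bases after a start. Of 32851 windows, 0.119% held 1 or more. Capitals mark the paired parts, the first pair on the strand of the gene and the second on the other, in chr10:86705510-86705694 (reverse strand, 250 to 66 bases before the RefSeq start):
Hsp90b1: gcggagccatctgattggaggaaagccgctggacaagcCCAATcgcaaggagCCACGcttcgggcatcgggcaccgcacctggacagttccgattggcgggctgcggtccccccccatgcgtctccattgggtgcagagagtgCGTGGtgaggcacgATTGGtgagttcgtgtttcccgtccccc

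Other genes of folding in the endoplasmic reticulum were read beside Hsp90b1 from a list of 21, 19 of which had a window and 6 of these an ER stress element (Calr, Canx, Creld2, Dnajc3, Hspa5 and Pdia6). In myelinating-Schwann-like cells 7 of 21 measured were higher and 0 lower, where 11.4% of all genes were higher and 10.1% lower, with a list median of 0.35 against 0.02 for all genes measured, and the count ranged from 2 to 8 over the alternative settings. Herpud1, a gene of endoplasmic reticulum-associated degradation, was at 32.8 and 97.6 CPM there (1.58, 1.30 to 1.84), and Dnajb9, a co-chaperone of the luminal HSP70, at 35.7 and 70.0 CPM (0.97). In Fabp7-gated glia 3 of 18 were higher and 3 lower, where 6.13% and 14.3% of all genes were. Among the 3 lower were the lectin chaperone gene Calr (-0.58) and the disulfide isomerase gene Pdia3 (-0.56). Over the alternative settings the count lower there ran from 0 to 4, with 0 under TMM factors, and the count higher from 2 to 3. In neuron-like cells Pdia3 was also lower, from 349.1 to 217.6 CPM (-0.68), and Ddit3, a stress-response transcription factor gene, was higher (0.85), with 1 of 21 called in each direction (7.03% and 3.67% of all genes). In neuron-like cells of 10000 to 30000 UMIs 11 of the list were lower, with 22.5% of all genes lower and the median of all genes shifted as above.

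Ahsa1 (ENSMUSG00000021037, chromosome 12, 87266479 to 87273998, forward strand), whose product speeds the ATPase of HSP90, had a positive ratio in all 9 classes but was called in 1, and under some alternatives the ratio was negative in Fabp7-gated glia, cycling glia and macrophage-like cells. Myelinating-Schwann-like cells had 59.0 CPM (54.7 to 63.6) and 88.0 CPM (74.3 to 103), from 683 flox and 147 cKO UMIs, or 0.58 (0.31 to 0.84). The call ended with TMM factors (0.48), with each cell weighted equally (0.485) and with cells thinned to 2000 UMIs (0.36). Neuron-like cells had 86.6 and 98.5 CPM (0.18, 0.13 to 0.24), which made Ahsa1 the member with the highest ratio there. The intervals also lay above 0 in weakly myelinating glia (0.19), fibroblast-like cells (0.22) and mural-like cells (0.72, from 85 UMIs in all, under the minimum for a call).

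Chordc1 (ENSMUSG00000001774, chromosome 9, 18292125 to 18317442, forward strand), whose zinc-binding product associates with HSP90, was called in 0 of 9 classes. Neuron-like cells had 76.0 and 62.0 CPM (-0.29, -0.36 to -0.23), but in those of 10000 to 30000 UMIs the ratio was 0.156. Ratios in the 4 glial groups lay between 0.19 and 0.32 with intervals that held 0, as in myelinating-Schwann-like cells (46.5 and 54.5 CPM, 0.23, -0.11 to 0.55). With cells thinned to 2000 UMIs the ratio was 0.939 in Fabp7-gated and -0.104 in cycling glia. Chordc1 was the 1 member, of 7 with a promoter window, whose window held a heat shock element of 3 units, the sequence bound by heat shock factors. Hsp90aa1 and Hsp90ab1 had no window, so their promoters were not searched. The units are GAA and its reverse complement in alternation with 2 bases between, searched on both strands, and 0.603% of all windows held 3 in a row. Cdc37, Fkbp4 and Stub1 had 2 units in a row, as did 15.1% of windows. Counted from the RefSeq start, the earliest GENCODE start lies at -485 bases in Stub1, -249 in Ahsa1 and -142 in Chordc1. The Stub1 window is thus inside the annotated gene, as is nearly all of the Ahsa1 window, and the sequence before those GENCODE starts was not searched. The run at the RefSeq start of Chordc1, also inside the annotated gene, is shown to set it beside its uncalled ratios. Capitals mark the units in chr9:18292260-18292289 (forward strand, from 7 bases before the RefSeq start), where 3 overlapping elements form a run of 5 units:
Chordc1: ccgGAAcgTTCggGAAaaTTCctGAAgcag

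Cdc37 (ENSMUSG00000019471, chromosome 9, 21133222 to 21149982, reverse strand), the adaptor for kinases, and Stip1 (ENSMUSG00000024966, chromosome 19, 7020702 to 7039967, reverse strand), the bridge from HSP70, were called in 0 of 9 classes. Cdc37 had 146.3 and 148.8 CPM in neuron-like cells (0.02, -0.02 to 0.07) and 106.7 and 113.1 CPM in myelinating-Schwann-like cells. Its ratios ran from -0.21 to 0.08 outside neurons, the narrowest span of the 9 members. Stip1 had 99.99 and 86.15 CPM in neuron-like cells (-0.215, -0.27 to -0.16), where the ratio was -0.021 with equal cell weights, 0.023 with cells thinned to 2000 UMIs and -0.010 in cells of 10000 to 30000 UMIs. Its lowest ratio was in Fabp7-gated glia, 90.3 and 65.6 CPM from 129 and 90 UMIs (-0.46, -0.86 to -0.06), and with a minimum of 2000 UMIs per cell it passed the size called there (-0.54). Stip1 was highest in cycling glia and lowest in fibroblast-like cells in both libraries, at 108.6 and 46.5 CPM in the flox library. The interval of cycling glia overlapped those of neuron-like cells and Fabp7-gated glia in the flox library. In the cKO library it overlapped those of weakly myelinating glia and mural-like cells. The interval of fibroblast-like cells overlapped those of endothelial-like and mural-like cells in both libraries, and those of further classes in each.

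Fkbp4 (ENSMUSG00000030357, chromosome 6, 128429735 to 128438677, reverse strand) encodes an immunophilin that joins HSP90 to steroid receptors. It was highest in neuron-like cells in both libraries, 186.1 and 182.9 CPM, although the cKO intervals of neuron-like cells and cycling glia overlapped. The ratio in neuron-like cells was -0.03 (-0.06 to 0.01). Fkbp4 was called lower in endothelial-like cells, 85.6 CPM (143 UMIs) against 52.9 CPM (43 UMIs), a ratio of -0.70 (-1.22 to -0.19). With cells thinned to 2000 UMIs that ratio was -0.35. In 6 of the other 7 non-neuronal classes the interval of the ratio held 0, and in myelinating-Schwann-like cells it did not (0.28, 0.07 to 0.48).

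Stub1 (ENSMUSG00000039615, chromosome 17, 25830505 to 25833404, reverse strand) encodes the ubiquitin ligase that marks HSP70 and HSP90 clients for degradation. It was lower in the cKO library in macrophage-like cells (140.6 and 94.5 CPM, -0.57, -0.97 to -0.19), endothelial-like cells (168.2 and 94.7 CPM, -0.83, -1.21 to -0.46) and mural-like cells (222.4 and 132.1 CPM, -0.75, -1.23 to -0.30). The ratio stayed under -0.5 in these 3 classes in all 8 alternative settings run on them, although with cells thinned to 2000 UMIs the endothelial and mural calls were lost. In the 4 glial groups it lay between -0.12 and 0.03 with intervals that held 0. These 3 classes also held the fewest cKO cells of those compared, 177, 147 and 141, and 71, 77 and 52 Stub1 UMIs.

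**Figure D3:**
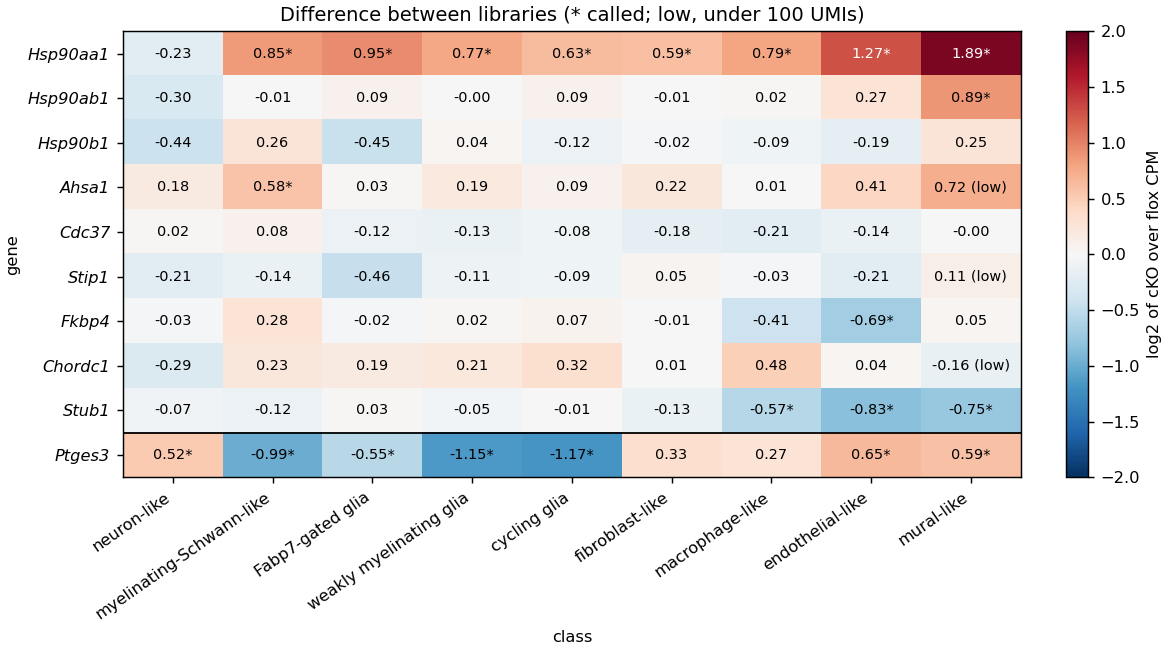
Log2 of cKO over flox CPM (colour and printed value) for the 9 members and Ptges3 (rows) in 9 classes (columns), with a star where a ratio was called and "low" where it rests on under 100 UMIs. Hsp90aa1 is called in 8 columns and Stub1 in 3, while Cdc37, Stip1, Chordc1 and Hsp90b1 have no star.

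Over all members, the counts called stood close to or apart from the background as follows. In neuron-like cells 0 of 9 were called, where 7.03% of 13914 genes were higher and 3.67% lower. In myelinating-Schwann-like cells 2 of 9 were higher and 0 lower, against 11.4% and 10.1% of all genes. Fabp7-gated glia, weakly myelinating glia, cycling glia and fibroblast-like cells each had 1 member higher, Hsp90aa1, and 0 lower, where 6.13%, 7.63%, 6.33% and 7.26% of genes were higher and 14.3%, 16.4%, 12.0% and 15.4% lower. With 1 of 9 in each, the group of members was near its background, and the difference lay in Hsp90aa1.

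Macrophage-like cells had 1 member higher and 1 lower, with 9.03% and 13.9% of genes called, and endothelial-like cells 1 higher and 2 lower, with 18.5% and 20.2%. Mural-like cells had 2 higher and 1 lower of 6 measured, with 13.7% and 23.3%, and Ahsa1, Stip1 and Chordc1 were under the UMI minimum there. The median ratio of the members measured was -0.215 in neuron-like cells (-0.024 for all genes), 0.23 in myelinating-Schwann-like cells (0.02) and 0.03 in Fabp7-gated glia (-0.10).

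Mural-like cells, with the largest ratios of Hsp90aa1 and Hsp90ab1, also differed in other measures. The share of mitochondrial UMIs in mural-like cells was 1.57% in the flox and 2.25% in the cKO library, with medians of 4638 and 2409 UMIs per cell. Of the cKO mural-like cells 8.51% lay less than 25% above the limit of the marker gate, and of the flox cells 1.74%. The 11 mural gate genes summed to 30830 CPM in flox and 15610 CPM in cKO cells, with 6 of 11 higher under cKO. The contractile genes Acta2 (14500 and 4626 CPM) and Tagln (9110 and 3460 CPM) were lower, while the pericyte genes Rgs5 (2164 and 3772 CPM) and Abcc9 (84.5 and 416.6 CPM) were higher and Vtn was lower (1981 and 401.4 CPM). The part of these in the mural ratios was not tested.

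Within neuron-like cells the members were read by subtype, from lists of subtype markers. The lower Hsp90aa1 of the cKO library held in cells of the Mrgprd list, non-peptidergic nociceptors (1468 and 1208 CPM, -0.28, -0.31 to -0.25). It was also seen in cells of a list led here by Slc17a8, Zfp521 and Cdh9 (1317 and 1026 CPM, -0.36). Cells of the peptidergic list, with Calca and Tac1, had 1377 and 1251 CPM (-0.14, -0.18 to -0.10). Cells of the neurofilament and mechanoreceptor list had 1279 and 1260 CPM, a ratio of -0.02 (-0.06 to 0.02) whose interval held 0. The difference thus varied between subtype lists and was not called in any of them. Median depths of flox and cKO cells were 55525 and 27464 UMIs in the Mrgprd list and 44287 and 25986 in that led by Slc17a8. They were 46988.5 and 8958 in the peptidergic and 52250.5 and 15467 in the neurofilament and mechanoreceptor list. In the peptidergic list Calca stood at 9913 and 6030 CPM and Tac1 at 2044 and 2104 CPM. The part of depth and makeup in the variation was not tested.

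Hsp90ab1 had a lower cKO level in each of the 4 subtype lists, with ratios from -0.37 in peptidergic (4557 and 3529 CPM) to -0.17 in neurofilament and mechanoreceptor cells (3674 and 3258 CPM). Hsp90b1 ran from -0.46 in peptidergic (349.8 and 254.8 CPM) to -0.22 in neurofilament and mechanoreceptor cells (277.9 and 239.2 CPM). Ptges3 was higher in each list, by 0.38 to 0.56. Of the 9 members 0 were called in any list. The share of all genes called higher and lower was 6.09% and 6.87% in the Mrgprd list, 5.28% and 7.15% in that led by Slc17a8, 4.50% and 6.51% in the peptidergic list, and 4.34% and 4.03% in the neurofilament and mechanoreceptor list. Many cells, 523 flox and 1792 cKO, fell in no list, and their median depths were 39674 and 7411 UMIs. There 0 of 9 members were called too, with 6.91% of genes higher and 4.83% lower, and Hsp90aa1 had 1389 and 1155 CPM (-0.265).

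**Figure D4:**
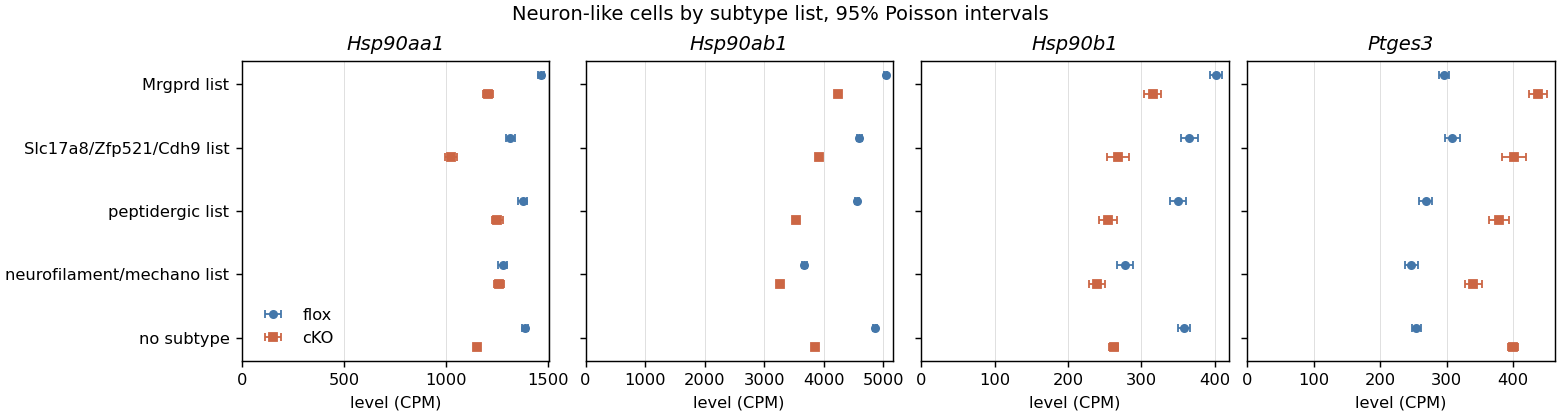
Level (CPM, horizontal axes) of Hsp90aa1, Hsp90ab1, Hsp90b1 and Ptges3 in neuron-like cells by subtype list (rows), flox as circles and cKO as squares, with 95% Poisson intervals. The cKO squares lie to the left for the 3 HSP90 genes, least for Hsp90aa1 in neurofilament and mechanoreceptor cells (1279 and 1260 CPM), and to the right for Ptges3.

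The genes of the wider chaperone system were read from lists of related genes. A list of 21 genes of the HSP70 cycle and heat shock response held many genes higher in the cKO library outside neurons: 8 of 20 measured in myelinating-Schwann-like cells, 10 of 17 in Fabp7-gated glia, 10 of 20 in weakly myelinating glia and 11 of 21 in fibroblast-like cells, with 0 lower in these 4. Of all genes 11.4%, 6.13%, 7.63% and 7.26% were higher in these classes and 10.1%, 14.3%, 16.4% and 15.4% lower. Its medians there were 0.48, 0.62, 0.43 and 0.52, against 0.02, -0.10, -0.10 and -0.09 for all genes measured. Cycling glia had 8 of 20 higher, endothelial-like cells 10 of 16 and mural-like cells 8 of 15, with 0 lower. Of all genes 6.33%, 18.5% and 13.7% were higher there and 12.0%, 20.2% and 23.3% lower. Macrophage-like cells had 7 higher and 2 lower of 14, where 9.03% and 13.9% of all genes were. In neuron-like cells 4 of 21 were higher and 1 lower, with a median of 0.16, where 7.03% and 3.67% of all genes were. Over the alternative settings the counts higher ranged from 6 to 11 in myelinating-Schwann-like, from 5 to 13 in endothelial-like and from 3 to 7 in neuron-like cells.

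The genes of that list had unlike ratios. Hspa1a, an inducible HSP70 gene, had 272.2 and 963.6 CPM in myelinating-Schwann-like cells (1.82, 1.74 to 1.91) and 19.2 and 134.4 CPM in neuron-like cells (2.81, 2.73 to 2.90). Hspb1, a small heat shock protein gene, had 26.1 and 137.7 CPM in myelinating-Schwann-like cells (2.40), and Hspb8, another of that family, was lower in neuron-like cells (191.2 and 128.1 CPM, -0.58). Hspa8, the constitutive HSP70 gene, had 1372 and 1477 CPM there (0.11, 0.04 to 0.17) and 2475 and 2250 CPM in neuron-like cells (-0.14). Hspa1a and its near-identical copy Hspa1b can share reads, so the split between those copies is uncertain.

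A list of 26 other genes of the HSP90 system had 5 higher and 1 lower of 20 in myelinating-Schwann-like cells, 1 and 1 of 14 in Fabp7-gated glia, and 1 and 0 of 25 in neuron-like cells. The shares of all genes higher and lower were 11.4% and 10.1%, 6.13% and 14.3%, and 7.03% and 3.67% in these 3 classes, for this list and the next ones. Over the alternative settings the count higher in myelinating-Schwann-like cells ran from 1 to 8. The largest ratio was that of Fnip1, an inhibitor of the HSP90 ATPase, at 10.6 and 33.5 CPM in myelinating-Schwann-like cells (1.66, 1.17 to 2.12). Among 22 client genes 1 of 16 was higher in myelinating-Schwann-like cells, the aryl hydrocarbon receptor gene Ahr (0.97), which was also higher in Fabp7-gated glia (0.81), while Igf1r, a receptor tyrosine kinase gene, was lower there (-1.08). In neuron-like cells 3 of 19 clients were higher, among them Ripk1 (0.81), a kinase gene of cell death signalling, and Erbb3 (0.81), a neuregulin receptor gene that is also 1 of the 11 glial gate genes. That count ran from 0 to 4 over the alternatives, with 0 higher and 2 lower in cells thinned to 2000 UMIs. A list of 9 genes held R2TP, an HSP90 partner complex that assembles other complexes, and genes grouped with it, Zfp830 among these. It had 1 of 7 higher in myelinating-Schwann-like cells, Zfp830 (0.51), and 1 of 3 lower in Fabp7-gated glia, Pih1d1 (-0.70). In neuron-like cells 0 of 9 were called. Over the alternative settings the count higher in myelinating-Schwann-like cells ran from 0 to 1. The count lower ran from 0 to 1 in Fabp7-gated glia and from 0 to 2 in neuron-like cells.

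**Figure D5:**
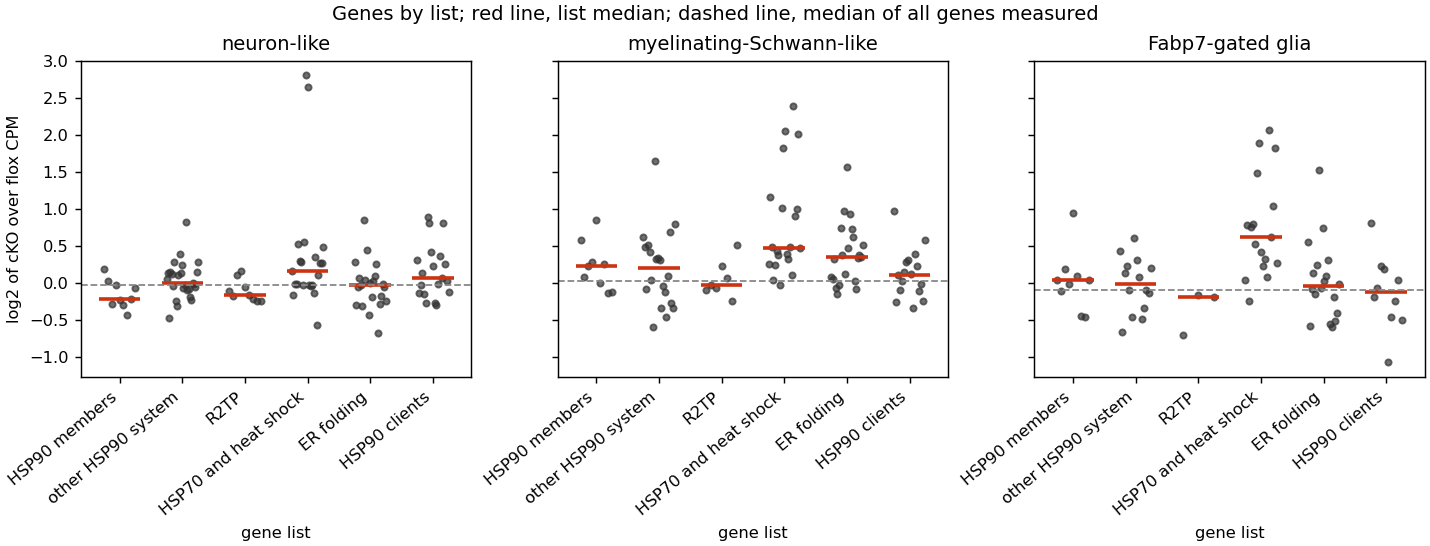
Log2 of cKO over flox CPM (vertical axis) of each gene measured, by list (horizontal axis), in 3 classes, with the list median as a red line and the median of all genes measured as a dashed line. The HSP70 and heat shock list has medians of 0.48 and 0.62 in the glial classes and of 0.16 in neuron-like cells.

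The gene whose levels ran most like those of Hsp90aa1, over 20 values of class and library and among 10616 genes, was Hsph1, an HSP70 nucleotide exchange factor gene (Pearson r of 0.83 on log2(CPM + 10)). Cacul1 (0.82), Rab21 (0.81), Zmym1 (0.80) and Nt5dc3 (0.80) came next. Of the members Ahsa1 was nearest, at rank 66 (0.67), and Hsp90ab1 stood at 0.39. For Hsp90ab1 the nearest genes were Sptan1 (0.91), Sdcbp2 (0.89), Zfp282 (0.85), Tbcc (0.84) and Arhgap26 (0.83). With 1 CPM added in place of 10, 4 of the 5 genes were named again for each. These are descriptions over values that share 2 libraries and their depths.

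Hsph1 itself had 24.98 and 101.2 CPM in myelinating-Schwann-like cells (2.02, 1.74 to 2.30), 27.3 and 97.0 CPM in Fabp7-gated glia (1.83) and 65.9 and 79.1 CPM in neuron-like cells (0.26, 0.20 to 0.32). It is shown because it shares with Chordc1 a heat shock element of 3 units near the RefSeq start. Of the 18 HSP70 list genes with a window, 4 held such an element (Dnajb6, Hspd1, Hspe1 and Hsph1). Capitals mark the units in chr5:149636279-149636308 (reverse strand, bases 7 to 36 after the RefSeq start):
Hsph1: gctgcagaTTCtgGAAagTTCtcctcagta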

How the data were processed

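The deposited values are raw UMI counts per gene and barcode, from Single Cell 3′ libraries. The submitters' processing notes name Cell Ranger 5.0.1, Scanpy and mm10, while the file headers name cellranger 6.1.2. Whether introns were counted, and any removal of free RNA or doublets, are not given in the sources used here. Every per-sample column was used.

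A cell needed 1000 UMIs, 500 genes and a mitochondrial share of no more than 15%, which left 8714 in the flox and 8435 in the cKO library. Classes were gated by marker UMIs per 10000 with at least 3 markers: neuron 100, glia 30, fibroblast 20, macrophage 50, endothelial 30 and mural 50, then cycling 20, myelin 300 and Fabp7 20 within glia. The limits were set after seeing marker scores. Cells past the gates of 2 lineages (455 and 476) stood in for doublets and were left out, as were cells in no class (332 and 439) and erythroid-like cells (37 and 21). UMIs were summed per class and library. Ratios, intervals and calls were checked on simulated Poisson counts, the model that the intervals assume, with no variation between cells, animals or libraries. That check therefore says nothing about such variation in these data. With 1 library per genotype no p-value was computed.

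The members and lists were chosen with earlier results of these data known. All members and Ptges3 are named. From each other list, up to 2 genes at either end of the order by that limit of the interval which is closer to 0 in neuron-like, myelinating-Schwann-like and Fabp7-gated cells may be named, and the 5 most correlated with Hsp90aa1 and with Hsp90ab1. Promoter sequences come from RefSeq (GRCm38.p6), and 7 of 9 members had a window, all but Hsp90aa1 and Hsp90ab1.

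Alternatives were a minimum of 2000 UMIs, TMM factors (edgeR 4.0.16), a total without mitochondrial, ribosomal protein and haemoglobin genes, equal weight per cell, thinning to 2000 UMIs, a stricter gate, removal of the highest Scrublet scores (scanpy 1.11.5), no UMI minimum and, for neurons, at least 10000 UMIs, equal subtype weights and, chosen after seeing the data, 10000 to 30000 UMIs.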

Additional observations from a re-analysis of the deposited data

Results flagged for a closer look

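Hsp90aa1 had opposite ratios in 2 classes of the same pair of libraries: its log2 ratio of cKO over flox was 1.886 in mural-like and -0.234 in neuron-like cells. Hsp90ab1 did the same, with 0.889 in mural-like and -0.304 in neuron-like cells. The difference between the classes was not tested, since each genotype has 1 library.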

How the results depend on the processing

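No paired analysis was possible because each genotype has 1 library, and for the same reason none could be left out. No called ratio of a member or of Ptges3 changed sign under the alternatives run. Of the ratios of these genes under the alternatives, 666 lay within the interval of the main ratio and 84 outside it. For the other lists the counts called were followed. The ratio of Hsp90aa1 ranged from 0.752 to 1.000 in myelinating-Schwann-like cells, from 0.927 to 1.112 in Fabp7-gated glia, from 1.839 to 1.940 in mural-like cells and from -0.263 to -0.114 in neuron-like cells. Of the counts of members called, 140 stayed within 1.5 times the reported count and 10 did not. The count higher in myelinating-Schwann-like cells was 1 with TMM factors, with equal cell weights and with thinned cells. In Fabp7-gated glia 1 member was lower with at least 2000 UMIs (Stip1) and 1 with equal weights (Hsp90b1), the latter judged by size alone. In endothelial-like cells 2 were higher with equal weights and with the highest Scrublet scores removed (Ahsa1 beside Hsp90aa1), and 0 lower with thinned cells. In mural-like cells 0 were lower with thinned cells. In neuron-like cells of 10000 to 30000 UMIs 1 was lower, Hsp90b1. The causes were not tested, except that thinning leaves fewer UMIs. TMM factors moved the median of all genes in Fabp7-gated glia by 0.163. Members under 100 UMIs in a class were limited by depth.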
